A study of Mus musculus with 8 samples.

Results

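The genes described here are 37 genes of glucose entry, glycolysis, pyruvate handling and the citric acid cycle in mouse beta cells, taken by gene symbol from a table of 44343 genes. All 37 were found. They comprise 2 glucose transporters, 14 genes of glycolysis, 8 genes of pyruvate handling, and 13 genes of the citric acid cycle with its cytosolic partner enzymes. Each passed the filter on low values, a mean normalized count of at least 10 over the 8 libraries.

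RNA was sequenced from 4 KO and 4 HET libraries of beta cells sorted from mouse islets, to compare beta cells in which both alleles or 1 allele of Adar were targeted. Adar encodes an RNA editor that converts adenosines of double-stranded RNA to inosine. The KO libraries came from MipCreER, Adar floxed/floxed, R26R-EYFP mice, and the HET libraries from MipCreER, Adar floxed/+, R26R-EYFP mice, so the HET cells had also recombined 1 Adar allele. All mice were 1 month old when they received 2 tamoxifen doses of 8 mg, and islets were isolated 7 days later. MipCreER is a tamoxifen-inducible Cre recombinase under a mouse insulin promoter, and EYFP-positive cells, in which Cre had acted, were sorted. The number of mice behind each library is not given in the sources used here. A limma p-value thus reflects only how much the libraries of a genotype differ, which may be partly technical. Limma takes part of that spread from other genes, and for most genes nearly all of it where this is stated below.

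A beta cell senses glucose by burning it. Glucose enters through a facilitative transporter, is phosphorylated and is broken down to pyruvate, most of which enters the mitochondria to feed the citric acid cycle. The ATP made from it closes potassium channels and triggers insulin release. The high-affinity hexokinases and lactate dehydrogenase A, which would let the cell respond at low glucose or divert pyruvate to lactate, are kept low in mature beta cells.

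The libraries held 5.37 to 15.9 M reads in KO and 5.93 to 12.8 M in HET, and they differed in ways that genotype does not describe. The median level of genes averaging 200 or more normalized counts, set against the average library, was 0.88 and 0.96 in log2 for KO 1 and KO 2 and −0.77 and −0.56 for KO 3 and KO 4. The HET libraries lay between −0.46 and 0.22. Reads of olfactory and vomeronasal receptor genes, which beta cells are not known to need, took 0.0353% to 0.327% of reads in KO and 0.0868% to 0.244% in HET. KO 3 and KO 4 held reads of females only (Ddx3y at 1.10 and 0), HET 1 of males only (Xist at 19.2), and the other 5 libraries of both sexes. Summed normalized counts of 9 beta cell markers were 224901 to 1362144 in KO and 625323 to 1288042 in HET. Ductal markers, 4 genes, summed to 1226 to 4114 in KO and 1215 to 2478 in HET. Acinar markers, 7 genes, summed to 53.8 to 149 in KO and 66.3 to 119 in HET, and macrophage and leukocyte markers, 5 genes, to 136 to 206 in KO and 196 to 238 in HET. Adar itself was at 4030.0, 2365, 615 and 1343 in KO 1 to KO 4 and 943, 1173, 1187 and 744 in HET 1 to HET 4. Its gene-level count does not measure the floxed part, so it does not check the labels.

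Because of these level differences, each gene is given on 2 scales. The first is the deposited normalized count, a read count divided by 1 size factor per library. The second, here the expressed-gene scale, divides the recovered reads by trimmed-mean (TMM) factors computed from the 6697 genes averaging 200 or more, so that most expressed genes lie at the same level in every library. This scale was chosen after the libraries' levels had been seen. In bulk RNA, fewer cells of a type and less RNA per cell cannot be told apart on either scale.

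Under the deposited scaling no difference between KO and HET passed the test for any of the 37 genes. Limma called 0 of 37 higher and 0 lower at a Benjamini-Hochberg adjusted p under 0.05, beside 0.944% of the 21498 genes tested, and 0 also had an unadjusted p under 0.05, beside 6.75%. On recovered reads, the quasi-likelihood test of edgeR (0.708% of all genes called) and DESeq2 (1.27%) also called 0 members, and neither gave a member an unadjusted p under 0.05. The smallest limma adjusted p of a member was 0.894, that of Hk2. The smallest was 0.828 with edgeR and 0.569 with DESeq2. Log2 fold changes, KO relative to HET on the log2(value + 1) scale, ran from −0.61 to 0.66. Their median was 0.09, against 0.05 over all tested genes, with 23 positive and 14 negative. Among genes averaging 50 or more, the median was 0.10 over 34 members and 0.25 over all 11064 genes. Standard errors were 0.40 to 0.64, as large as most of the differences. The median degrees of freedom in this fit were 128988. For most genes the standard error and p thus came almost wholly from the trend over all genes, not from the gene's own libraries. The groups overlapped for all 37, while 3.08% of all tested genes had groups that did not. Restricted to the 5 libraries of both sexes, which keeps KO 1 and KO 2 but neither KO 3 nor KO 4, limma called 26 members higher and 3 lower, beside 52.5% of all genes tested. The median log2 fold change over all genes was 0.63 there. With median degrees of freedom of 60486, the spread in that fit also came almost wholly from other genes. With the expressed-gene scale described above those 5 libraries gave 0 calls.

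**Figure D1:**
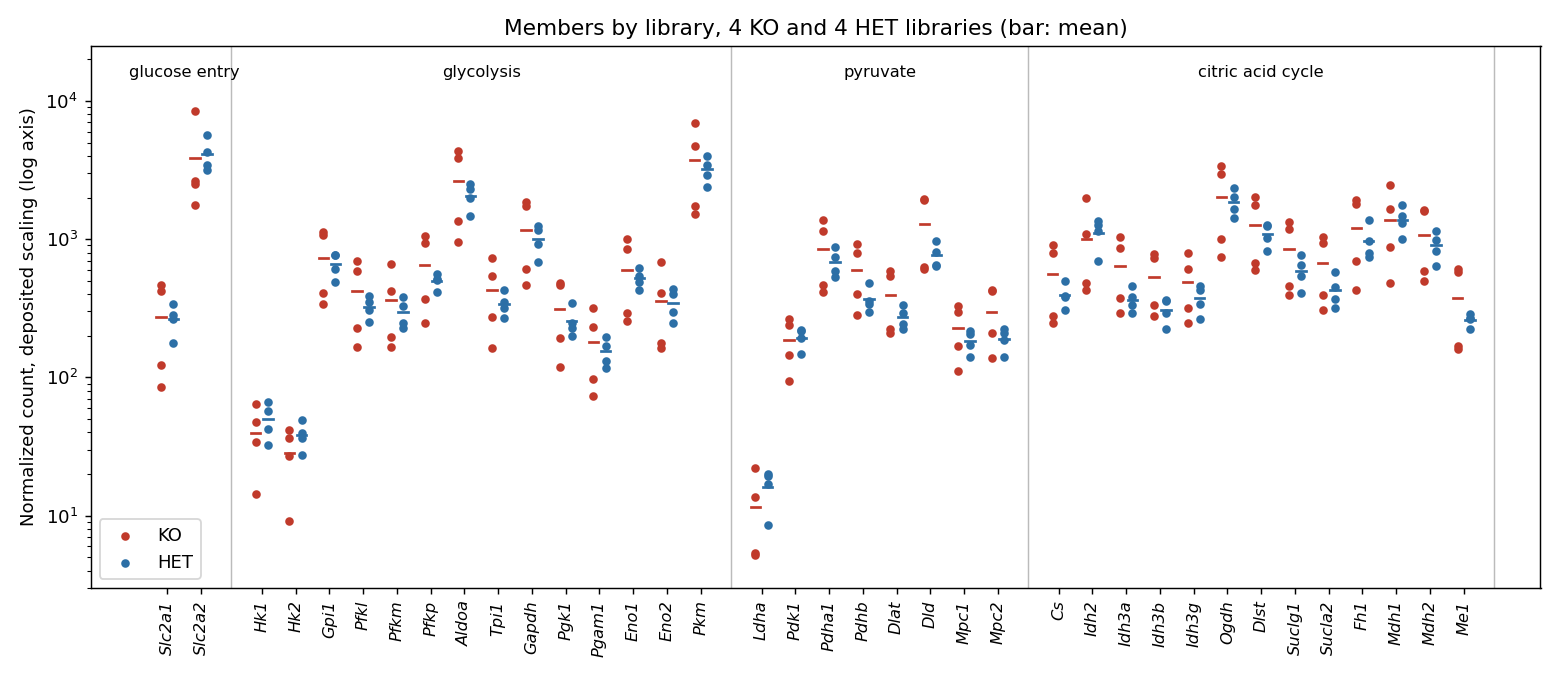
Deposited normalized counts (log axis) of the 37 genes in each library, KO left of HET for each gene, with bars at the group means. For every gene the KO points overlap the HET points and for most they spread more widely, and Hk1, Hk2 and Ldha lie far below the other 34 genes.

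With the expressed-gene scale the spread between libraries shrank, and still no member was called. Among the 32 members averaging 200 or more, limma called 0 higher and 0 lower (10.3% of the 6697 genes tested were called). Without adjustment, 3 members were higher and 7 lower at a p under 0.05, close to the 30.9% of all genes tested. Standard errors were mostly between 0.10 and 0.21. Groups did not overlap for 7 of the 32, near the 22.0% seen over all 6697 genes. KO lay below HET for Gpi1, Eno1 and Ogdh, and above it for Pdhb, Dld, Idh3a and Idh3b. The 5 genes not in this fit were Hk1, Hk2, Pgam1, Ldha and Pdk1. Their values on this scale come from a fit of every gene averaging 10 or more, which called 0 of the 37 members and 1.54% of all 21498 genes. In that fit the median log2 fold change over all genes was −0.18, against 0.05 with the deposited scaling, so values on the expressed-gene scale are read relative to that shift for genes of low level.

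**Figure D2:**
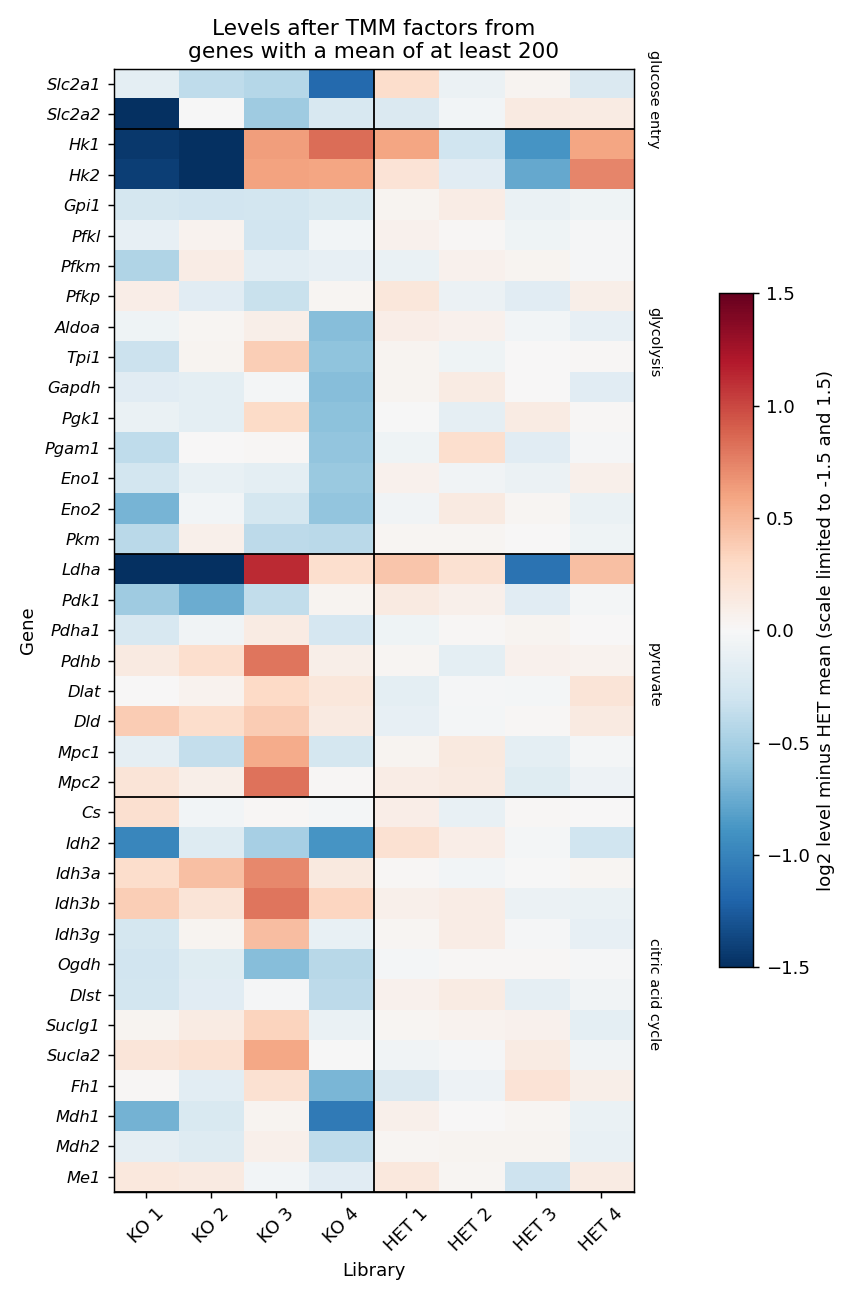
Level of each gene in each library on the expressed-gene scale, as log2 minus the HET mean, KO 1 to KO 4 left of HET 1 to HET 4. Values past −1.5 or 1.5 take the end color. Slc2a1, Idh2 and Mdh1 are pale or blue in KO, Idh3a and Idh3b are red in all 4 KO libraries, and KO 4 is blue for most genes of glycolysis.

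Glucose entry was represented by Slc2a2 (chromosome 3, 28697903 to 28731359, plus strand, mm10), which encodes GLUT2, the main glucose transporter of mouse beta cells, and Slc2a1 (chromosome 4, 119108711 to 119137983, plus strand), which encodes the widely expressed GLUT1. Slc2a2 was at 2623, 8513, 1764 and 2504 normalized counts in KO 1 to KO 4, against 3184, 4288, 5645 and 3459 in HET 1 to HET 4. KO 2 held the highest value of all 8 libraries and the other KO libraries the lowest 3. Its log2 fold change was −0.36 ± 0.64 (SE; limma adjusted p = 0.964). On the expressed-gene scale it was at 1461, 4475, 3088 and 3789 in KO and 3861, 4375, 4929 and 4868 in HET. There the difference was −0.60 ± 0.30 (adjusted p = 0.194), and KO 1 was the lowest of the 8 libraries. Without KO 1 it was −0.25 (limma adjusted p = 0.423).

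Slc2a1 was at 465, 419, 122 and 84.5 normalized counts in KO 1 to KO 4, against 284, 265, 339 and 176 in HET 1 to HET 4. KO 1 and KO 2 were above every HET library and KO 3 and KO 4 below every one. On the expressed-gene scale it was at 259, 220.5, 214 and 128 in KO and 345, 270.4, 296 and 247 in HET, with only KO 1 above the lowest HET library. The log2 fold change was −0.29 ± 0.48 on the deposited scale (limma adjusted p = 0.962) and −0.53 ± 0.21 on the expressed-gene scale (adjusted p = 0.111; exact two-sided permutation p = 0.0571, where 0.0286 is the least that 70 arrangements can give). Without KO 4 the expressed-gene value was −0.32 (limma adjusted p = 0.183). The ratio of Slc2a2 to Slc2a1 reads, which needs no scaling, was 5.64, 20.3, 14.4 and 29.6 in KO and 11.2, 16.2, 16.6 and 19.7 in HET. The KO libraries covered a wider range than HET and lay on both sides of it. Over the 8 libraries, the genes most like Slc2a1 in pattern were Agpat1, Ets2 and Cd82. Their Pearson correlations were 0.987, 0.985 and 0.984 after TMM scaling of all genes passing the filter on low values. That scaling is not the expressed-gene scale. The part of level differences shared by many genes in these correlations was not tested.

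Glycolysis genes differed little between the genotypes, and none was called. With the expressed-gene scale all 11 genes tested had small negative log2 fold changes. The median over those 11 was −0.15, beside −0.002 over all 6697 genes. In the fit of genes averaging 10 or more all 14 were negative, with a median of −0.24, beside −0.18 over all genes. Under the deposited scaling the 14 genes split into 7 positive and 7 negative with a median of 0.00, beside 0.05 over all genes. The signs thus depend on the scaling, while the group median was below that of all genes in each of these fits. The 12 of them averaging 50 or more had a deposited median of 0.05, beside 0.25 over all such genes. The median of the 14 genes on the expressed-gene scale, each relative to its HET mean, was −0.29, −0.08, −0.09 and −0.48 in KO 1 to KO 4 and between −0.05 and 0.04 in HET. All 4 KO medians were below the HET medians, and KO 4 was the lowest.

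After the phosphorylation of glucose come glucose phosphate isomerase (Gpi1) and phosphofructokinase, the committed step, whose liver, muscle and platelet subunits come from Pfkl, Pfkm and Pfkp. Gpi1 was at 598, 589.9, 595 and 613 on the expressed-gene scale in KO 1 to KO 4 and 739.6, 777, 672 and 689 in HET 1 to HET 4. All KO values were below all HET values, and the KO libraries differed little among themselves. The log2 fold change was −0.26 ± 0.10 (limma adjusted p = 0.0998), and −0.02 ± 0.54 with the deposited scaling. Pfkl averaged 332 ± 32.3 in KO and 355 ± 13.0 in HET, Pfkm 292 ± 45.6 in KO and 322 ± 15.9 in HET, and Pfkp 519 ± 68.8 in KO and 553 ± 60.4 in HET (SD, n = 4 each), on the expressed-gene scale. These differences, −0.10, −0.15 and −0.09 in log2, were no larger than the spread between KO libraries. The subunit ratios overlapped between the genotypes as well, with Pfkp to Pfkl at 1.57 ± 0.202 in KO and 1.55 ± 0.133 in HET.

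The enzymes that split the sugar and harvest the first ATP and NADH were Aldoa (aldolase A), Tpi1 (triose phosphate isomerase), Gapdh (glyceraldehyde phosphate dehydrogenase), Pgk1 (phosphoglycerate kinase) and Pgam1 (phosphoglycerate mutase). Their log2 fold changes were, with expressed-gene scaling, between −0.25 and −0.13. KO 4 held the lowest value of each of the 5. Aldoa was at 2152, 2285, 2387 and 1447 in KO 1 to KO 4 and 2413, 2349.7, 2185 and 2056 in HET 1 to HET 4. Gapdh was at 963, 980.5, 1066 and 699 in KO and 1114, 1188, 1089 and 968 in HET. In both genes KO 1 to KO 3 fell within or next to the HET range and KO 4 below it. Gapdh has 72 annotated genes elsewhere with at least 95% identity over 500 bases or more, of which 62 are in the table. Together these held 216 to 338 deposited normalized counts in KO and 236 to 329.7 in HET, while Gapdh itself held 462 to 1865 in KO and 688 to 1247 in HET, so its level is uncertain by the reads that may be shared.

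Among the last steps, enolase 1 and the neuronal and neuroendocrine enolase 2 make phosphoenolpyruvate, and the muscle-type pyruvate kinase (Pkm) turns it into pyruvate. Eno1 was at 474, 529, 516 and 388 on the expressed-gene scale in KO 1 to KO 4 and 597, 551, 539 and 605 in HET 1 to HET 4. Every KO library was below every HET library, in KO 2 by little (log2 fold change −0.27 ± 0.12, limma adjusted p = 0.152, and −0.18 with adjusted p = 0.288 without KO 4). Eno2 was at 228, 361, 311 and 246 in KO and 357, 407, 379 and 348 in HET. Here KO 2 lay within the HET range (−0.40 ± 0.15, limma adjusted p = 0.104), and the adjusted p was 0.0331 without KO 2, the 1 of 8 such fits that called it, and 0.259 without KO 1. Pkm, per kilobase of exon the most abundant of the 37 genes in KO, had 746 ± 519 deposited normalized counts per kilobase in KO and 638 ± 141 in HET (SD, n = 4 each). With expressed-gene scaling it was at 2628, 3656, 2655 and 2630.2 in KO and 3544, 3535, 3499.7 and 3336 in HET, with KO 2 alone above the HET range (−0.28 ± 0.15, limma adjusted p = 0.237). A gene-level count does not separate the splice forms of Pkm.

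The high-affinity hexokinases Hk1 and Hk2 and lactate dehydrogenase A (Ldha) had the lowest levels of the 37 genes and ran against most of the others over the libraries. Hk1 was at 34.1, 14.2, 47.4 and 63.7 deposited normalized counts in KO 1 to KO 4 and 66.6, 42.5, 32.6 and 57.5 in HET 1 to HET 4. Hk2 was at 26.9, 9.06, 36.4 and 41.7 in KO and 39.7, 36.3, 27.4 and 49.4 in HET. Ldha was at 5.38, 5.18, 22.1 and 13.7 in KO and 19.2, 20.0, 8.57 and 17.0 in HET, which is 4 to 23 reads in KO and 10 to 21 reads in HET. For each of the 3 genes KO 1 and KO 2, where most of the other 34 genes were at their highest, were lower than KO 3 and KO 4. KO 1 and KO 2 also had the smallest shares of olfactory and vomeronasal receptor reads, at 0.0498% and 0.0353%, and the lowest values of Hk2 and Ldha. The part of that background in the levels of these genes was not tested.

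Per kilobase of exon, Hk1 had 4.67 ± 2.45 normalized counts in KO and 5.84 ± 1.78 in HET, Hk2 4.78 ± 2.40 in KO and 6.40 ± 1.52 in HET, and Ldha 3.50 ± 2.43 in KO and 4.89 ± 1.58 in HET (SD, n = 4 each). The mean over 1173 olfactory receptor genes, without the vomeronasal ones, was 1.15 to 3.72 per kilobase in KO and 1.81 to 3.10 in HET. The log2 fold changes of Hk1, Hk2 and Ldha were −0.45 ± 0.40, −0.57 ± 0.40 and −0.61 ± 0.49 under the deposited scaling, with limma adjusted p-values of 0.920, 0.894 and 0.913. Without KO 2 they were −0.03 for Hk1, −0.12 for Hk2 and −0.35 for Ldha. The KO mean was below the HET mean for each of the 3, and no rise of these genes was detectable at this depth. The genes most like Hk2 over the 8 libraries were Gm10717, Gm21738 and D10Wsu102e (Pearson correlation 0.936, 0.925 and 0.922). Those most like Ldha were Ttn, D10Wsu102e and Gm21738 (0.948, 0.916 and 0.907). These correlations used the same TMM scaling as for Slc2a1, and the part of shared level differences in them was not tested.

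**Figure D3:**
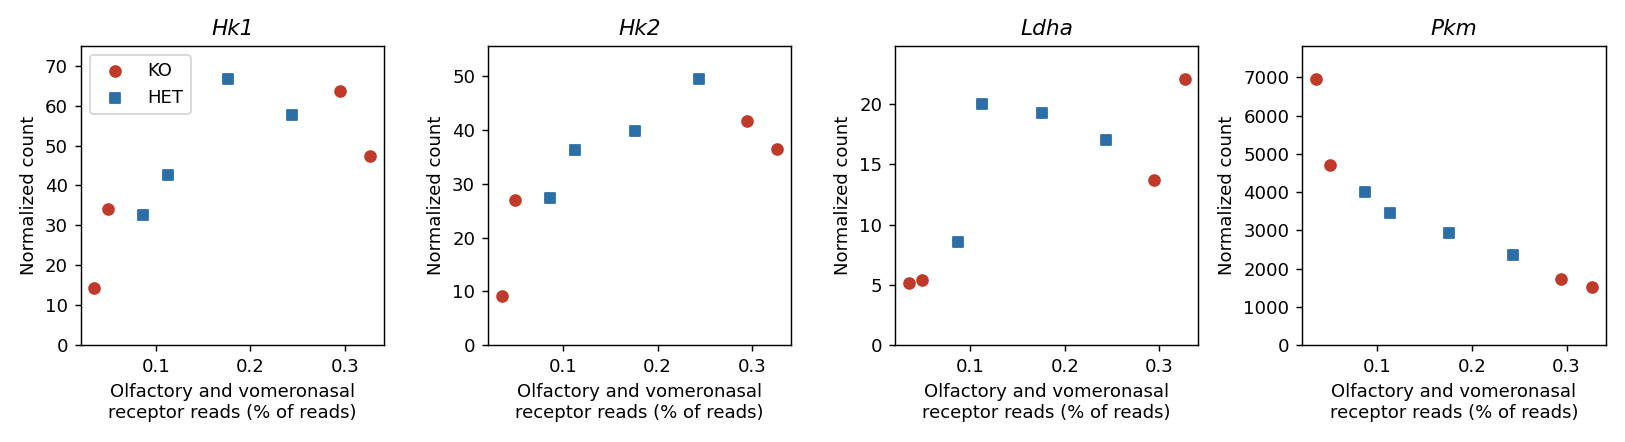
Deposited normalized count of Hk1, Hk2, Ldha and, for contrast, Pkm against the share of reads from olfactory and vomeronasal receptor genes, each point 1 library (KO circles, HET squares). The 3 low genes are lowest where that share is small, and Pkm, at 6956 in KO 2 and 1517 in KO 3, falls as the share grows.

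No gene of pyruvate handling was called. Pyruvate enters mitochondria through the carrier formed by Mpc1 and Mpc2 and is turned into acetyl-CoA by pyruvate dehydrogenase, whose E1 subunits come from Pdha1 and Pdhb, its E2 from Dlat and its E3 from Dld. Pdk1 encodes a kinase that shuts the complex off. Among the 6 genes tested on the expressed-gene scale, 4 had positive and 2 negative log2 fold changes, with a median of 0.20. With Ldha and Pdk1 added, from the fit of genes averaging 10 or more, 4 were positive and 4 negative on that scale, with a median of 0.04. Under the deposited scaling the median of all 8 was 0.28, with 6 positive and 2 negative. The 7 of them averaging 50 or more had a deposited median of 0.37, beside 0.25 over all such genes.

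Pdhb (chromosome 14, 8165996 to 8173025, minus strand, mm10) was at 443, 481, 707 and 428 on the expressed-gene scale in KO 1 to KO 4 and 413, 364, 421 and 421 in HET 1 to HET 4. All KO values were above all HET values, and KO 3 stood well above the rest (log2 fold change 0.32 ± 0.16, limma adjusted p = 0.190, and 0.15 with adjusted p = 0.299 without KO 3). Dld was at 1093, 1006, 1097 and 923 in KO and 774, 824, 850.2 and 919 in HET. The KO values were again all higher, KO 4 only just (0.29 ± 0.11, limma adjusted p = 0.107). Dlat averaged 329.7 ± 30.4 in KO and 301 ± 31.1 in HET, and Pdha1 averaged 700.0 ± 87.9 in KO and 748 ± 22.7 in HET (SD, n = 4 each), both with groups that overlap. Pdk1 was at 146, 127, 164 and 218 on that scale in KO and 233, 223, 188 and 208 in HET. Of its KO values KO 4 alone reached the HET range (−0.40 ± 0.18, limma adjusted p = 0.345 in the fit of genes averaging 10 or more).

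In the citric acid cycle no common direction was seen. With expressed-gene scaling 7 of the 13 genes had positive and 6 negative log2 fold changes, with a median of 0.02 and 0 called. Under the deposited scaling it was 10 positive and 3 negative, with a median of 0.26. All 13 average 50 or more, and the median over all such genes was 0.25. Citrate synthase (Cs), which starts the cycle, averaged 445 ± 42.9 on the expressed-gene scale in KO and 430.2 ± 25.9 in HET (SD, n = 4 each). Its log2 fold change of 0.05 ± 0.11 was less than the spread between libraries.

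The isocitrate dehydrogenases had log2 fold changes of unlike sign, of which none was called. The NAD-dependent enzyme of the cycle is built from the catalytic subunit of Idh3a and the subunits of Idh3b and Idh3g, while Idh2 encodes the mitochondrial enzyme that uses NADP. Idh2 (chromosome 7, 80094846 to 80115392, minus strand, mm10) was at 605, 1049.9, 849.7 and 647 on the expressed-gene scale in KO 1 to KO 4 and 1399.9, 1285, 1172 and 975 in HET 1 to HET 4. KO 2 alone exceeded the lowest HET library. The log2 fold change of −0.64 ± 0.18 had the smallest adjusted p of any member on that scale (limma adjusted p = 0.0505), and it was −0.40 ± 0.56 with the deposited scaling (adjusted p = 0.961). Its adjusted p with expressed-gene scaling was 0.0142 without KO 2 and 0.0469 without KO 3, and up to 0.144 without any other single library.

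Idh3a (chromosome 9, 54586334 to 54604661, plus strand) was at 479, 547, 659 and 443 in KO and 404, 388, 397 and 408 in HET on the expressed-gene scale. Idh3b (chromosome 2, 130279309 to 130284547, minus strand) was at 434, 382, 587 and 418 in KO and 353, 361, 316 and 312 in HET. In both, all 4 KO libraries were above all 4 HET libraries, and KO 3 was the highest. The log2 fold changes were 0.40 ± 0.13 for Idh3a and 0.42 ± 0.14 for Idh3b (limma adjusted p = 0.0708 and 0.0742). Leaving out 1 library called Idh3a in 1 of 8 fits, without KO 4, and Idh3b in 1 of 8, without KO 2, and the adjusted p was up to 0.176 for Idh3a and 0.169 for Idh3b. Idh3g (chromosome X, 73778963 to 73786897, minus strand) was at 337, 414, 558 and 374 in KO and 412, 435, 399.7 and 372 in HET, with KO values on both sides of the HET range (0.03 ± 0.15). The genes most like Idh3b over the 8 libraries were Hmox2, Bex1 and Mtif3 (Pearson correlation 0.991, 0.988 and 0.983). These correlations used the same TMM scaling as for Slc2a1, not the expressed-gene scale. The part of level differences shared by many genes in them was not tested.

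Of the oxoglutarate dehydrogenase complex, the next step, Ogdh encodes E1, Dlst E2 and Dld the E3 shared with pyruvate dehydrogenase. Ogdh was at 1653, 1787, 1304 and 1519 on the expressed-gene scale in KO 1 to KO 4 and 1990.4, 2051, 2054 and 2002 in HET 1 to HET 4. The HET libraries were nearly level and every KO library was below them (log2 fold change −0.38 ± 0.13, limma adjusted p = 0.0826). Leaving out 1 library called Ogdh in 1 of 8 fits (adjusted p = 0.0426 without KO 2), and the adjusted p was up to 0.187, without HET 2. Dlst averaged 1031 ± 115 in KO and 1193 ± 93.3 in HET (SD, n = 4 each), with groups that overlap.

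In the later steps no gene was called either. Succinyl-CoA synthetase, from Suclg1 and the ATP-forming Sucla2, had log2 fold changes of 0.10 ± 0.12 and 0.24 ± 0.13 on the expressed-gene scale, and fumarase (Fh1) of −0.15 ± 0.19. Malate dehydrogenase is encoded by Mdh1 for the cytosol and Mdh2 for the mitochondrion. Mdh1 was at 923, 1290.0, 1547 and 724 in KO and 1583, 1509, 1533 and 1406 in HET. KO 3 was at the HET level and the other KO libraries below every HET library (−0.49 ± 0.21, limma adjusted p = 0.140), and the adjusted p was 0.0314 without KO 3, the 1 of 8 such fits that called it. Without KO 4 the log2 fold change was −0.30 (adjusted p = 0.269), and without KO 1 the adjusted p was 0.299. Mdh2 averaged 879.7 ± 114 in KO and 977 ± 48.8 in HET, and Me1, the cytosolic malic enzyme, averaged 294 ± 31.8 in KO and 291 ± 40.7 in HET (SD, n = 4 each), within the spread.

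**Figure D4:**
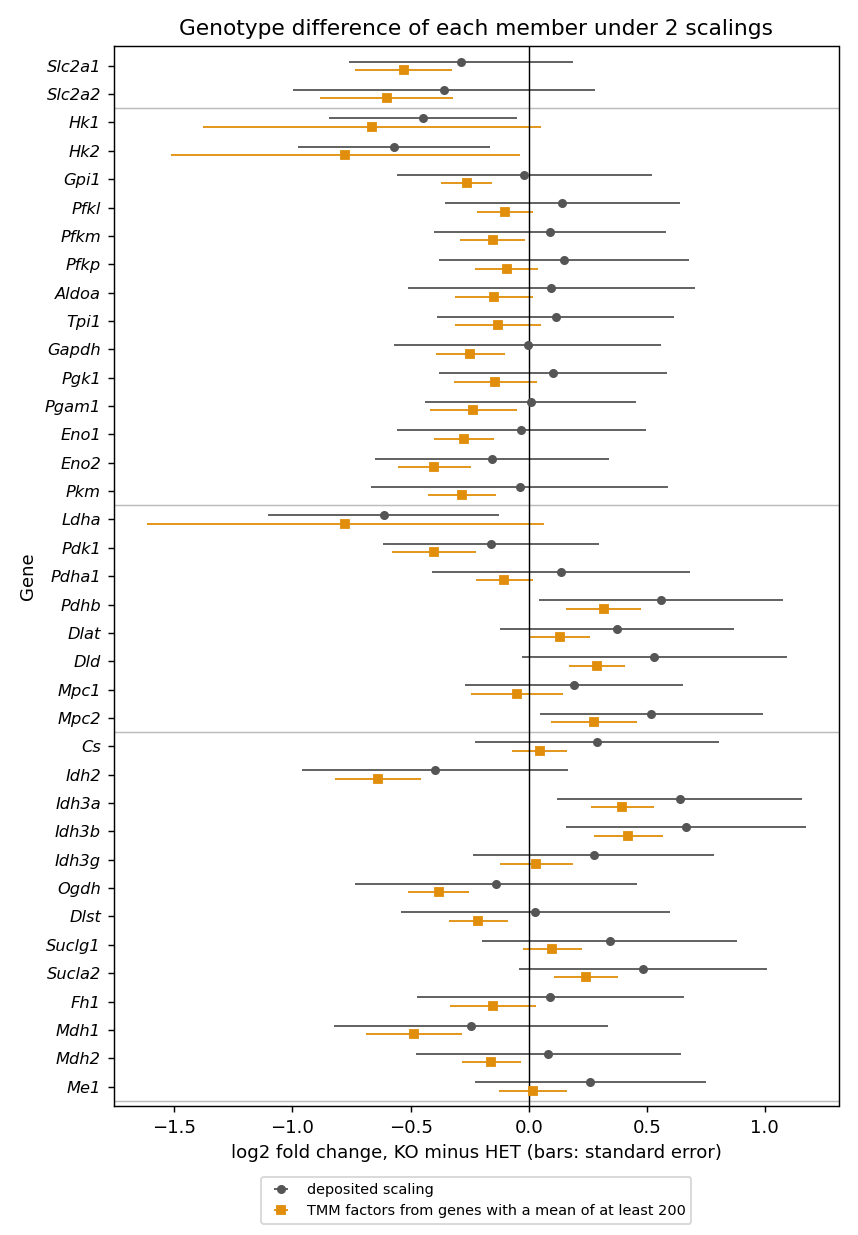
Log2 fold change of each gene, KO relative to HET, with its standard error, under the deposited scaling (grey circles) and on the expressed-gene scale (orange squares, from the fit of genes averaging 10 or more). The orange bars are the shorter ones except for Hk1, Hk2 and Ldha, and every orange square lies left of its grey circle.

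The ratio of 2 genes within a library does not depend on any scaling. Among the 32 members averaging 200 or more, 131 of 496 pairs had ratios that did not overlap between KO and HET, or 26.4%, close to the 23.0% of 22421556 pairs of all such genes. For 17 pairs of partner genes, chosen by their biochemical relation with the values of single genes known, 6 did not overlap. In all 6 the KO ratios were the higher ones, a direction that rests on which gene was put on top. Since the pairs were chosen in this way, no test was made.

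Within pyruvate dehydrogenase E1, the ratio of Pdhb to Pdha1 reads was 0.699, 0.670, 0.865 and 0.680 in KO 1 to KO 4 and 0.577, 0.481, 0.548 and 0.560 in HET 1 to HET 4, a difference of 0.42 in mean log2. For the pyruvate carrier, Mpc2 to Mpc1 was 1.31, 1.41, 1.24 and 1.25 in KO and 1.09, 1.03, 1.02 and 1.01 in HET, a difference of 0.33. Both sets were tight within each genotype, apart from Pdhb to Pdha1 in KO 3. Of Mpc1 exons 23.1% overlap a gene on the other strand, 4930506C21Rik, and of Pdha1 exons 16.1% overlap Map3k15 on the other strand, and the strand setting used in counting is not given in the sources used here.

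Within the NAD-dependent isocitrate dehydrogenase, Idh3a to Idh3g was 1.42, 1.32, 1.18 and 1.19 in KO and 0.981, 0.891, 0.993 and 1.10 in HET. Idh3b to Idh3g was 1.29, 0.921, 1.05 and 1.12 in KO and 0.857, 0.830, 0.790 and 0.840 in HET. Idh3a to Idh3b overlapped, at 1.18 ± 0.171 in KO and 1.20 ± 0.105 in HET (SD, n = 4 each), so that ratio did not separate the genotypes. The widest gap of the 17 pairs was between the enzymes, with Idh3a to Idh2 at 0.792, 0.521, 0.775 and 0.685 in KO and 0.289, 0.302, 0.338 and 0.419 in HET, a difference of 1.04 in mean log2. Dld to Ogdh was 0.661, 0.563, 0.841 and 0.607 in KO and 0.389, 0.402, 0.414 and 0.459 in HET. Counted over all 31 partners among these 32 members, Idh3a had KO ratios above HET with 22, Pdhb and Idh3b with 20 each, Sucla2 with 17 and Dld with 16. Ogdh had KO ratios below HET with 12 partners and Idh2 with 10. The 31 ratios of a gene all reuse its own 8 values, so they are not separate observations. Such counts were not made for genes other than these members, and 23.0% of all pairs of genes at this level did not overlap.

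**Figure D5:**
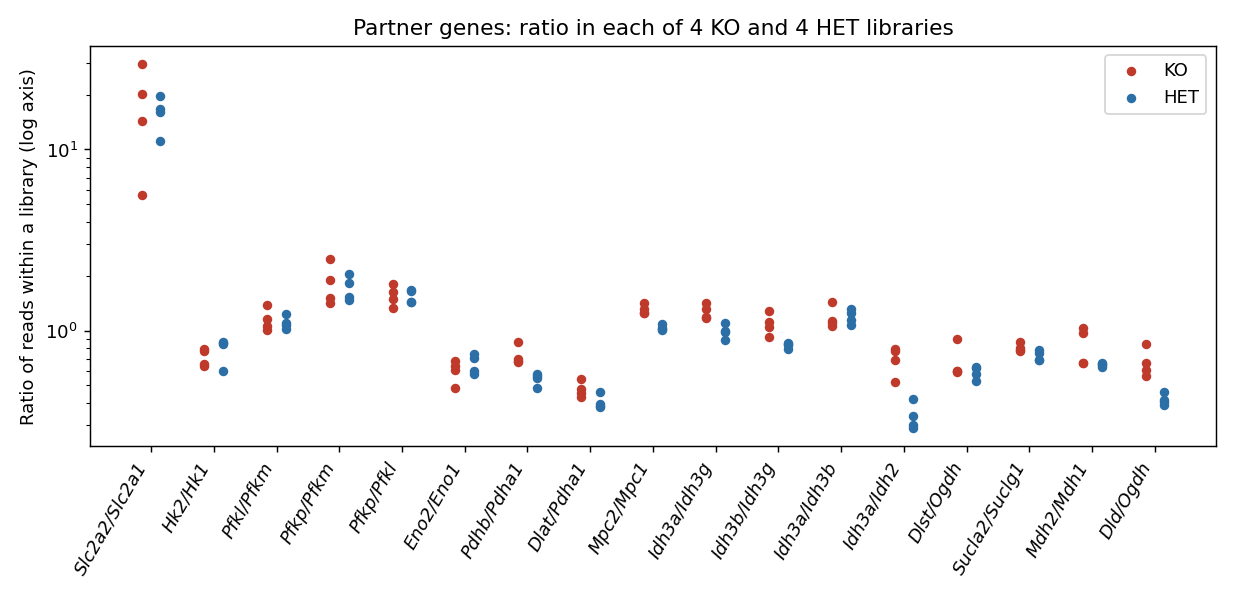
Ratio of reads of partner genes within each library (log axis), KO left of HET for each pair. The KO points lie wholly above the HET points for Pdhb/Pdha1, Mpc2/Mpc1, Idh3a/Idh3g, Idh3b/Idh3g, Idh3a/Idh2 and Dld/Ogdh, and the points of the other 11 pairs overlap.

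The promoters of 2 subunit pairs with ratios that did not overlap, Idh3b with Idh3g and Pdhb with Pdha1, are shown so that the partners can be compared. Each line gives the 250 bases before the gene's start in RefSeq (GRCm38.p6), 5′ to 3′ on its own strand, all on the minus strand. GENCODE places the start of Idh3b and Pdhb further upstream, so that 96 bases of the Idh3b window and 33 of the Pdhb window lie inside the GENCODE gene. The windows are chr2:130284452-130284701 for Idh3b, chrX:73786898-73787147 for Idh3g, chr14:8172993-8173242 for Pdhb and chrX:160138431-160138680 for Pdha1. Capitals mark the letters of a motif found on either strand, GGGCGG for the SP1 motif and CCAAT for the CCAAT box, which reads ATTGG on the other strand.
Idh3b: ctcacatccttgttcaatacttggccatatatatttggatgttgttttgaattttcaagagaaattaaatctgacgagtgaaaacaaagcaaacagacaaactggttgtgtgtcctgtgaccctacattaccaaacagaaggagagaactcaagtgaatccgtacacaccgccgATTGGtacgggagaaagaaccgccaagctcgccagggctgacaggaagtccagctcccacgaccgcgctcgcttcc
Idh3g: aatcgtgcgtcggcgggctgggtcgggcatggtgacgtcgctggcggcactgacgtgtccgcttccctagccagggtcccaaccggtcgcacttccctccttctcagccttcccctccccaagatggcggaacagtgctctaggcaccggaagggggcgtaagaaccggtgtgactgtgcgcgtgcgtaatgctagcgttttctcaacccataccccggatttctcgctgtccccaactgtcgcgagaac
Pdhb: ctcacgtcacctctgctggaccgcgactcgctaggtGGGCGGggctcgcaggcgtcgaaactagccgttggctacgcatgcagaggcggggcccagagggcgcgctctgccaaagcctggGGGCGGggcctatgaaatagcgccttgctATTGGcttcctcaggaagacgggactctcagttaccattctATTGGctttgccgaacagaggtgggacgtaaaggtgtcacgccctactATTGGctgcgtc
Pdha1: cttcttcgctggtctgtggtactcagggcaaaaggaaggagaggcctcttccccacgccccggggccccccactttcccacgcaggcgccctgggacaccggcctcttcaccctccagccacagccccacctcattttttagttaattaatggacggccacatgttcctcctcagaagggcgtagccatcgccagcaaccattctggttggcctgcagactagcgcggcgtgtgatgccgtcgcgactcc
The Pdhb window held 2 SP1 motifs and 3 CCAAT boxes, the Idh3b window 1 CCAAT box, and 1 box in each of these windows lies inside the GENCODE gene. The windows of Idh3g and Pdha1 held none of the 6 motifs searched. Windows were available for 36 of the 37 members, not for Idh3a. Over all 32536 windows of this length, 33.0% held GGGCGG and 33.8% CCAAT, and at least 1 window did so for 24 and 18 of the 36 members. These shares are of windows and the member counts are of genes, which may have more than 1 window. The counts here and below therefore cannot be read against the shares. The other 4 motifs, each searched on both strands like these, were the E-box CACGTG, the cyclic AMP response element TGACGTCA, the ETS motif CCGGAAGT and the estrogen-related receptor motif TCAAGGTCA. The E-box was found for 3 members and in 6.04% of all windows, and the cyclic AMP response element for 3 members and in 1.56%. The ETS motif, in 2.90% of all windows, and the estrogen-related receptor motif, in 0.375%, were found for 0 members. Idh3g and Pdha1, the denominators of 3 of the 6 pairs, are on the X chromosome, and the sexes in the libraries differ. The part of the sexes in these ratios was not tested.

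Other genes of the pathway, 55 in a list made for comparison, gave a similar picture. Limma tested 54 of them under the deposited scaling and called 0, with 2 higher and 1 lower at a p under 0.05 before adjustment. The edgeR test also called 0, with 2 higher and 4 lower at that p, and DESeq2 0, with 4 higher and 1 lower. The median log2 fold change was −0.04. G6pc2, the islet glucose-6-phosphatase, which removes the phosphate again, was at 6347, 9241, 13414 and 9246 on the expressed-gene scale in KO 1 to KO 4 and 5471, 6796, 12241 and 9931 in HET 1 to HET 4, with groups that overlap widely (0.17 ± 0.29, limma adjusted p = 0.720).

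On the expressed-gene scale 4 of the 24 genes tested from that list were called, 1 higher and 3 lower, beside 10.3% of all 6697 genes. Got1, the cytosolic aspartate aminotransferase of the malate-aspartate shuttle, rose by 0.64 ± 0.14 (limma adjusted p = 0.0203), to 380.0, 262, 284 and 312 in KO against 197, 181, 201 and 206 in HET. Pyruvate carboxylase (Pcx), which refills the cycle with oxaloacetate, was lower in KO (−0.57 ± 0.14, limma adjusted p = 0.0311), at 773, 1087, 738 and 929.9 in KO and 1335, 1356, 1177 and 1308 in HET. Idh1, the cytosolic NADP-dependent isocitrate dehydrogenase, was lower as well (−1.04 ± 0.30, limma adjusted p = 0.0493), at 204, 417, 411 and 149 in KO and 539, 606, 607 and 474 in HET. Ogdhl, a relative of Ogdh, was also lower (−0.63 ± 0.17, limma adjusted p = 0.0405), at 1996, 2799.9, 2313 and 1868 in KO and 3768, 3776, 2847 and 3422 in HET. Groups did not overlap for any of the 4 genes, which was also so for 22.0% of all 6697 genes. Under the deposited scaling none of the 4 was called (limma adjusted p of 0.795 for Got1, 0.964 for Pcx, 0.860 for Idh1 and 0.961 for Ogdhl).

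These 4 calls depended on the filter and on single libraries. With the same factors and all genes averaging 10 or more, Got1 alone was called (limma adjusted p = 0.0475), and the adjusted p was 0.0710 for Pcx, 0.0780 for Ogdhl and 0.0997 for Idh1. The 5 libraries of both sexes gave 0 calls on this scale. Leaving out each library in turn, Got1 was called in 4 of 8 fits (limma adjusted p = 0.00894 without KO 2 to 0.0711 without HET 2). Pcx was called in 3 of 8 (0.00898 without KO 2 to 0.0996 without HET 1). Idh1 was called in 2 of 8 (0.0198 without KO 2 to 0.130 without KO 1), and Ogdhl in 2 of 8 (0.0146 without KO 2 to 0.128 without HET 1). The direction was the same in all 8 fits for each gene.

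The listed genes with the smallest p under the deposited scaling were, beside Got1, of low level. Pck1, the cytosolic phosphoenolpyruvate carboxykinase, was at 3.59, 3.88, 22.1 and 21.4 normalized counts in KO 1 to KO 4 and 34.6, 33.8, 23.1 and 21.1 in HET 1 to HET 4 (−1.46 ± 0.45, limma adjusted p = 0.0991). As with Ldha, the low values were those of KO 1 and KO 2. Fbp1, the fructose bisphosphatase, was at 100.4, 60.8, 12.1 and 41.1 in KO and 33.3, 13.8, 12.9 and 18.6 in HET (1.16 ± 0.41, limma adjusted p = 0.256). Slc25a13, the aspartate-glutamate carrier citrin, had a log2 fold change of 0.81 ± 0.40 (limma adjusted p = 0.711), with overlapping groups. Of 17 hypoxia-induced genes outside the pathway, limma under the deposited scaling tested 13, edgeR 15 and DESeq2 17. Each called 0, also without adjustment. The median with limma was 0.24, beside 0.25 over all genes averaging 50 or more, a level that all 13 reached. Ddit4 and Ankrd37, with the smallest p of these, had 0.55 ± 0.42 and 0.45 ± 0.41 (limma adjusted p = 0.910 and 0.924). On the expressed-gene scale 10 of the 17 were tested and 0 called, with a median of −0.02. Without adjustment 1 was higher and 1 lower at a limma p under 0.05, beside 30.9% of all genes tested.

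All members together took 0.291%, 0.323%, 0.270% and 0.281% of reads in KO 1 to KO 4 and 0.318%, 0.330%, 0.308% and 0.312% in HET 1 to HET 4. The KO shares were spread more widely than the HET shares. KO 2 lay within the HET range, and KO 1, KO 3 and KO 4 lay below it. Gene-level counts can also share reads with close copies elsewhere, of which Eno1 has 3, Pgk1 and Ldha 2 each, and Gpi1, Pgam1, Pkm, Pdhb and Me1 1 each.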

How the data were processed

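Libraries were made with Takara's SMARTer stranded total RNA kit for pico inputs (version 3), per the labels' protocols. Per the submitters' processing notes, the tools were STAR 2.7.3a, HTSeq, UMI-tools, FastQC 0.11.8 and DESeq2 1.28.1, and the build mm10; strand and duplicate settings are not given in the sources used here. The deposited values are the authors' normalized counts, a signal per gene equal to a gene count divided by 1 size factor per library. In each library 100% of values were whole multiples of its smallest step (tolerance 0.001), which gave back whole reads. Limma 3.58.1 (R 4.3.3) tested log2(value + 1) for genes averaging 10 or more, with genotype as the only term, eBayes with trend and robust settings, two-sided, and Benjamini-Hochberg adjustment over all genes tested. This pseudocount understates changes of low genes. Alternatives were edgeR 4.0.16 and DESeq2 1.42.0 on recovered reads, other scalings, filters and pseudocounts, a replicate block, and leaving out libraries. Near copies were sought with BLAST 2.17.0 among annotated transcripts. Coordinates are those of GENCODE M21 for mm10, counted from base 1. The named genes are all members, G6pc2, Pcx, the other pathway genes called and the 4 of smallest p, the 2 hypoxia-induced genes of smallest p, and the 3 genes most correlated with 1 member of each pathway group. A further gene of the naming rule is not reported here. Members, lists and tests were chosen with earlier results of these data known. The scripts were tested on simulated data. No replicate pair was as close as counting noise allows (the least chi-square over its degrees of freedom was 24.6 in KO and 3.15 in HET).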

Additional observations from a re-analysis of the deposited data

Results flagged for a closer look

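Of 74 groups checked, each the 4 libraries of 1 genotype for 1 gene, 1 held a library far from the others, Slc2a2 in KO, and chance alone marks about 1 group in 20. Its deposited normalized count was 8513 in KO 2, against 1764 to 2623 in the other KO libraries, and the gap to the nearest of them was 0.873 of the whole range, above Dixon's critical value for a group of this size. On the expressed-gene scale KO 2 was at 4475, within the HET range of 3861 to 4929. KO 2 also had the highest level of expressed genes and the smallest share of olfactory and vomeronasal receptor reads, and their part in this value was not tested.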

How the results depend on the processing

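No member was called in 27 of 32 alternatives, among them all 8 that leave out 1 library with the deposited scaling. The depth of 4 to 107 reads a library limits what Hk1, Hk2 and Ldha can show. Over all genes, those called lower were 5, but 2 among genes averaging 50 or more, 8 with TMM, 18 with scaling to each library's total reads, 8 with edgeR, 3 with DESeq2 and 85 with TMM factors from genes averaging 200 or more. Called higher and lower were 320 and 138 with quantile scaling, 127 and 1 without trend or robust settings, and 404 and 284 on the expressed-gene scale. Leaving out 1 library gave 105 to 338 higher and 1 to 46 lower with the deposited scaling, and 110 to 621 higher and 25 to 557 lower on the expressed-gene scale (higher 131 without HET 1 and 611 without KO 3; lower 68 without HET 3, 96 without HET 4, 178 without KO 4 and 503 without KO 3). There it gave 0 to 1 members higher and 0 to 3 lower, which were Idh3a higher without KO 4, Idh2 and Mdh1 lower without KO 3, and Idh3b higher with Eno2, Idh2 and Ogdh lower without KO 2. Over all genes, the fit without KO 2 called 621 higher and 557 lower of 6371, and the fit without KO 3 611 and 503 of 6847. With the 5 libraries of both sexes, where KO keeps only KO 1 and KO 2, 26 members were higher and 3 lower (8538 and 2049 genes). The log2 fold changes of Slc2a1, Gapdh and Eno1 turned to 0.81, 0.84 and 0.82, beside a median of 0.63 over all genes tested. On the expressed-gene scale those libraries gave 0 genes and 0 members. The cause was not tested. Replicate numbers do not pair the libraries (correlation of deviations 0.22, −0.05, 0.13 and 0.28), although 3 of 4 KO libraries correlated best with the HET library of their own number, a hint from the data and not the design. With the number as a block, 182 genes were higher, 5 lower and 0 members called, and on the expressed-gene scale 499 were higher and 439 lower, with 2 members lower, Slc2a1 and Idh2 (limma adjusted p = 0.0405 and 0.0225). The expressed-gene factors applied to all genes, and to both-sex libraries, were alternatives chosen after seeing the data.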
